A study of Rattus norvegicus with 12 samples.

Results

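The comparison set the laryngeal adductor complex (AC) of rats with a cut recurrent laryngeal nerve against the adductor complex of rats whose nerve was left whole. The recurrent laryngeal nerve (RLN) drives the muscles of the vocal folds, and the adductor complex holds the muscles that close them. All 3 arrays titled AC RLN injury and all 3 titled AC control entered, which are 6 of the 12 arrays of the series. The other 6 arrays came from the posterior cricoarytenoid (PCA), the muscle that opens the vocal folds, and were used only where a difference between the muscles was tested.

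Every animal was a male rat of the F344 strain, and every animal was anaesthetised with 75 mg/kg ketamine and 10 mg/kg xylazine given into the abdomen. Injured animals lost a 1 cm piece of the nerve on 1 side, and controls had the same operation up to the nerve. Tissue was taken 1 week later from 10 animals in each surgery group. The ages of the rats were not stated in the sources used here. The labels do not say which animals gave the 3 arrays of a group, nor whether tissue was pooled, so the p-values below measure the spread between arrays, which may be technical. They call the material polyA RNA, while the protocol describes total RNA from 30 to 50 mg of tissue, of which 100 ng was labelled for an Affymetrix whole-transcript array.

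A muscle fibre that loses its nerve is known to spread acetylcholine receptors beyond the former synapse, to switch on myogenin and other regulators of early muscle, and to return in part to embryonic contractile proteins. Oxidative and glycolytic enzymes are known to decline in unused muscle, and macrophages enter the muscle and the degenerating nerve branches to clear debris. In a bulk specimen of this kind, fewer cells of a type and less RNA per cell cannot be told apart.

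Each value is a log2 expression value as deposited, so a difference of 1 is a change of 2-fold. A gene is said to have risen or fallen where limma's moderated test on the 6 AC arrays gave an adjusted p under 0.05 (two-sided, Benjamini-Hochberg over 14329 genes). Values of 3 arrays are always given in the order of replicates 1, 2 and 3, and an error after ± is the standard error of the difference between 2 groups of 3 arrays.

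The arrays bore out the label of muscle, and they also carried the tissues around it. Averaged over 12 measured fast sarcomere genes, the mean log2 value per array lay between 11.46 and 12.23. Airway lining, squamous lining and cartilage were present as well: Scgb1a1, a secreted protein of airway cells, read 12.51 to 13.26, the basal keratin Krt14 read 10.05 to 10.84, and the cartilage protein Chad read 11.71 to 12.37. The mean of 13 squamous markers was 11.70, 11.16 and 11.29 in controls and 11.20, 10.74 and 11.14 in injured specimens, a range that overlapped. AC injury 2 stood apart: its mean over 15 thyroid and parathyroid markers was 8.30, against 6.29 to 6.53 in the other 5 arrays, with thyroglobulin (Tg) at 13.59 and parathyroid hormone (Pth) at 12.69. This array was also the farthest from the others on the first principal component (58.2% of the variance), which separated the groups.

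Nerve injury changed 619 of 14329 genes (4.32%) in the adductor complex. Of these, 326 rose (2.28%) and 293 fell (2.04%), and the median difference over all genes was 0.017. At least a 2-fold change was seen for 63 genes that rose (0.44%) and 31 that fell (0.216%). The 3 injured arrays lay wholly above the 3 controls for 15.3% of genes and wholly below them for 13.1%, and these shares are the background for the counts of separated groups below.

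The number of calls depended strongly on single arrays. Leaving out AC control 1, 2 or 3 in turn gave 46, 37 and 101 calls, and leaving out AC injury 1, 2 or 3 gave 1033, 121 and 59. With the squamous marker mean of each array as a covariate, 34 genes passed. All 619 genes kept the sign of their difference in each of these fits. They were chosen for a low p on the same arrays, so a change of sign was unlikely from the start. Only 30 genes passed with all arrays and with each of the 6 arrays left out, 16 that rose and 14 that fell, and they are named below as passing without any single array.

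The promoters of 5 textbook denervation genes are shown first, because these genes are known targets or members of the myogenin circuit and their transcripts moved together here. Each line gives the 250 bases before the RefSeq gene start on the gene's own strand, from the rat assembly GRCr8, with every CANNTG motif in capitals. CANNTG is the E-box read by myogenic factors such as myogenin. It reads the same on both strands, and CAGCTG is 1 of its forms. The 3 receptor genes code for subunits of the muscle acetylcholine receptor, Musk for the kinase that organises the synapse, and Myog for myogenin itself.
Chrna1 (chr3:78877354-78877603, strand -): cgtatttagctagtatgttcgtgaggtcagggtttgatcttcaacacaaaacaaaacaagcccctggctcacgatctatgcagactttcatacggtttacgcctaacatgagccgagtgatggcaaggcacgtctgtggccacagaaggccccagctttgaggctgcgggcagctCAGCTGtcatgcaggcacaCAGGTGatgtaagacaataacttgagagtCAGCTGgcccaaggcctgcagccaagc
Chrnd (chr9:95310066-95310315, strand +): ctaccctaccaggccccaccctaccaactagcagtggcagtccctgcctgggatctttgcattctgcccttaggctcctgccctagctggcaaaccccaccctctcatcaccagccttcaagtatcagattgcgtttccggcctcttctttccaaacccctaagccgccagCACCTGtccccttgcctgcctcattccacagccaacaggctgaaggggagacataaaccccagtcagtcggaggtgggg
Chrng (chr9:95325734-95325983, strand +): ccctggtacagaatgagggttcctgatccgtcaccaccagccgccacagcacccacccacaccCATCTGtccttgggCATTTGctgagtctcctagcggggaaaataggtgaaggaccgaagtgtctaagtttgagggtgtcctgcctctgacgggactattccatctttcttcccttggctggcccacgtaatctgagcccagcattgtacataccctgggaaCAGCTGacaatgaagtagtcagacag
Musk (chr5:77853486-77853735, strand +): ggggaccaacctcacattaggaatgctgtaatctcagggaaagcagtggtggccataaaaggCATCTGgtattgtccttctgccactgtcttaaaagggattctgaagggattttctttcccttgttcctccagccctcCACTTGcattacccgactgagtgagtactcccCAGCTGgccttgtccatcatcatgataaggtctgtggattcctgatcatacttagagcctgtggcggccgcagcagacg
Myog (chr13:48297226-48297475, strand +): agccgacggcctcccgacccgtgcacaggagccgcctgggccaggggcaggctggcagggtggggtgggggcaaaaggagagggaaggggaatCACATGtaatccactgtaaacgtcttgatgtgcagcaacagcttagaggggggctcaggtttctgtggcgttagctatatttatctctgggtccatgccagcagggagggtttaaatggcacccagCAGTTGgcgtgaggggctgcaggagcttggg

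The Chrna1 window holds 3 CANNTG motifs, 75, 56 and 27 bases before the start, and 2 of them are CAGCTG. The Chrng and Musk windows hold 3 each, with 1 CAGCTG each, while Myog holds 2 and Chrnd 1, none of them CAGCTG. Among 33469 rat promoter windows of 250 bases, 65.5% hold at least 1 CANNTG, 30.8% at least 2 and 11.5% at least 3. CAGCTG occurs at least once in 12% and at least 2 times in 1.04%. These matches describe letters and do not show binding.

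The acetylcholine receptor genes that rose were those of the alpha, delta and gamma subunits, which together with beta form the fetal receptor. Chrna1, the alpha subunit, read 9.14, 8.99 and 9.19 in controls and 12.16, 11.96 and 11.73 after injury. Chrnd, the delta subunit, went from 7.24, 7.30 and 7.41 to 9.93, 9.64 and 9.32. Chrng, the gamma subunit of the fetal receptor, went from 7.28, 6.69 and 6.98 to 9.30, 8.87 and 8.95. For all 3 genes every injured array lay more than 1 log2 unit above every control. The differences were 2.84 ± 0.120 for Chrna1 (7.18-fold, limma adjusted p = 0.000332), 2.31 ± 0.148 for Chrnd (4.97-fold, adjusted p = 0.00334) and 2.06 ± 0.170 for Chrng (4.16-fold, adjusted p = 0.00542). The beta subunit gene Chrnb1 (0.31 ± 0.134, adjusted p = 0.215) and Chrne, which codes for the adult epsilon subunit (0.25 ± 0.0890, adjusted p = 0.150), did not pass. Thus 3 of 5 subunits rose, and the same number passed without each single array.

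Among organisers of the synapse, Musk read 7.20, 6.93 and 7.32 in controls and 8.50, 8.27 and 8.31 after injury. The groups were separate, with a difference of 1.21 ± 0.118 (limma adjusted p = 0.00677) that passed without any single array. Nes, an intermediate filament protein of immature and synaptic muscle, rose by 1.29 ± 0.231 (adjusted p = 0.0321), and the ephrin receptor Epha7 fell by 0.58 (SE 0.116, adjusted p = 0.0403). Rapsn, whose protein clusters receptors, differed by 0.33 ± 0.0859 and did not pass (adjusted p = 0.0733). Of 14 measured members of this list 2 rose and 1 fell, with a median difference of -0.10.

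Regulators known to act in denervated muscle rose in 7 of 14 cases, with none falling and a median difference of 0.52. Myogenin (Myog) read 6.98, 6.25 and 7.24 in controls and 8.79, 8.74 and 8.85 after injury. The injured arrays were close together and all above the controls, 1.97 ± 0.227 higher (limma adjusted p = 0.0134). Ncam1, an adhesion molecule that returns to the whole surface of denervated fibres, went from 9.01, 8.98 and 9.33 to 10.65, 10.69 and 10.84, a difference of 1.62 ± 0.112 (adjusted p = 0.00334). Gadd45a, a growth arrest gene, rose by 1.27 ± 0.105, and the cell cycle inhibitor Cdkn1a by 1.09 ± 0.0968 (adjusted p = 0.00542 for each). The transcription factor Runx1 rose by 0.95 ± 0.119, the small-conductance potassium channel Kcnn3 by 1.22 ± 0.138 and the stretch-responsive Ankrd1 by 0.75 ± 0.0976 (adjusted p = 0.0164, 0.0129 and 0.0177). Hdac4, a deacetylase placed upstream of myogenin, differed by 0.29 ± 0.0890 and did not pass (adjusted p = 0.103). Ncam1, Gadd45a and Cdkn1a passed without any single array. Myog passed in 4 of the 6 fits that left out an array, Runx1 and Kcnn3 in 5, and Ankrd1 in 3.

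The largest rise of any gene that could be named was that of Mymk (myomaker), the membrane protein that lets muscle cells fuse. It read 5.96, 5.60 and 6.78 in controls and 9.65, 9.67 and 9.69 after injury, 3.56 ± 0.263 higher (11.8-fold, limma adjusted p = 0.00420). Controls varied by more than 1 log2 unit while the injured arrays agreed within 0.1. Embryonic myosin Myh3 went from 8.23, 7.81 and 8.70 to 10.56, 10.73 and 11.18 (2.58 ± 0.240, adjusted p = 0.00582). Cardiac and embryonic troponin T, Tnnt2, went from 7.14, 7.29 and 7.79 to 9.21, 9.45 and 9.56 (2.00 ± 0.174, adjusted p = 0.00542). The groups were separate for these 3 genes, which passed without any single array. Casq2, the calcium store protein of heart and slow muscle, read 9.0, 8.03 and 9.01 in controls and 10.24, 10.36 and 10.97 after injury (1.84 ± 0.296, adjusted p = 0.0270). In all, 5 of 11 genes on the list of embryonic and cardiac muscle rose, and none fell. The 5 were Mymk, which is not a contractile isoform, Myh3, Tnnt2, Casq2 and the troponin gene Tnnc1. Other cardiac genes did not pass: the atrial light chain Myl7 differed by 0.08 ± 0.0971, the natriuretic peptide gene Nppa by 0.03 ± 0.101 and cardiac actin Actc1 by 0.05 ± 0.0770 (adjusted p = 0.675, 0.906 and 0.749).

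Satellite cell genes rose in 5 of 21 cases, with a median difference of 0.24 and no falls. Myf5, a regulator of muscle precursors, went from 7.19, 6.98 and 7.19 to 7.98, 7.94 and 8.18 and passed without any single array (0.91 ± 0.0987, limma adjusted p = 0.0104). The receptor Fgfr4 rose by 0.63 ± 0.114, the adhesion molecule Cdh15 by 0.69 ± 0.0835 and the engulfment receptor Megf10 by 0.70 ± 0.113 (adjusted p = 0.0332, 0.0150 and 0.0272). Genes of cell division did not pass in any of 30 cases in the limma test. Their median difference was 0.25, 28 of the 30 were above 0, and 12 rose at an unadjusted p under 0.05, against 12.5% of all genes.

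**Figure D1:**
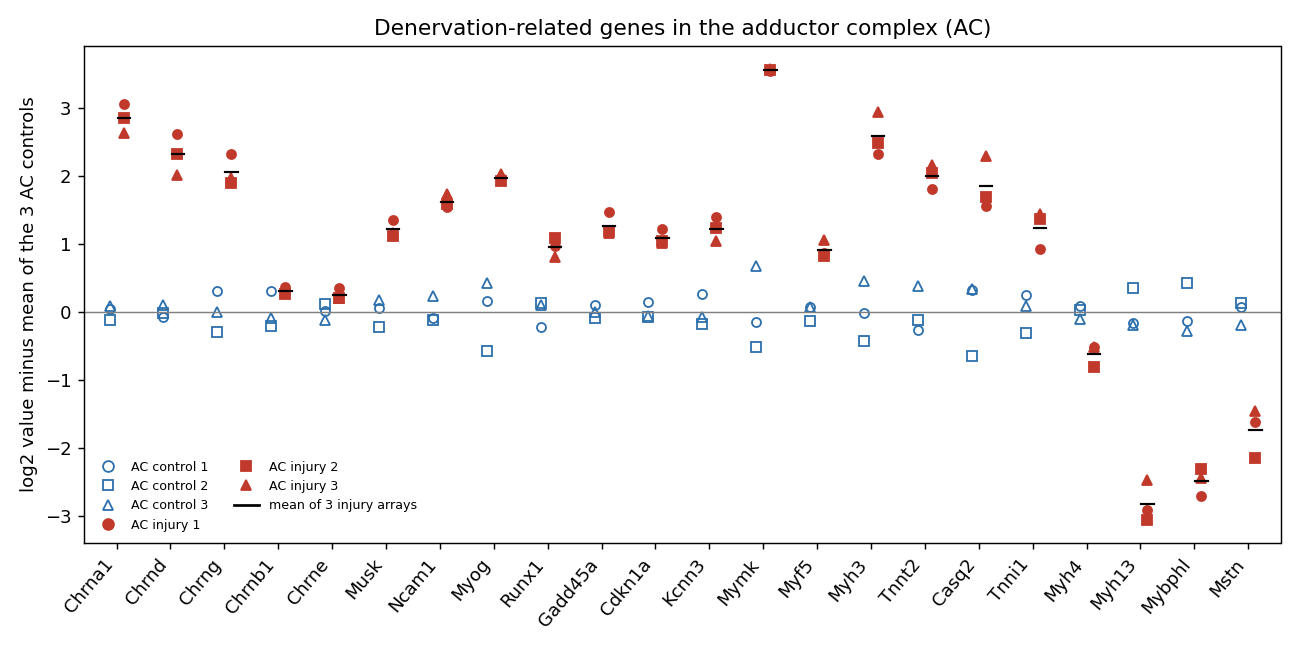
Log2 value of 22 denervation-related genes in each AC array, minus the mean of the 3 AC controls (blue open symbols, controls; red filled symbols, injured; black bars, mean of the 3 injured arrays). The injured arrays of Chrna1, Chrnd, Chrng, Mymk, Myh3 and Tnnt2 lie above all controls, those of Myh13, Mybphl and Mstn lie below them, and Chrnb1 and Chrne stay near 0.

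The contractile genes that fell were led by Myh13, the fast myosin of extraocular and laryngeal muscle. It read 11.24, 11.75 and 11.21 in controls and 8.48, 8.33 and 8.92 after injury, and fell by 2.82 on the log2 scale (SE 0.193, 7.08-fold, limma adjusted p = 0.00334). Mybphl, a myosin-binding protein, went from 9.66, 10.21 and 9.51 to 7.08, 7.48 and 7.35 and was 5.62-fold lower (adjusted p = 0.00422). Both sets of arrays were separate, and both genes passed without any single array. Myh4, the fastest limb myosin (IIB), fell by 0.62 (SE 0.106, adjusted p = 0.0311). The other adult myosins did not pass: Myh1 (IIX) read 13.00, 12.85 and 12.99 against 12.99, 12.49 and 12.87, Myh2 (IIA) differed by -0.42 ± 0.206, and the slow myosin Myh7 by -1.05 ± 0.302 (adjusted p = 0.513, 0.272 and 0.0915). Of 8 myosin heavy chains 1 rose and 2 fell.

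Fast and slow sarcomere genes moved apart in their medians. Of 12 fast genes 1 fell, none rose, and the median difference was -0.47. The 1 was Pvalb, the calcium buffer parvalbumin (12.13, 12.16 and 11.97 against 11.59, 10.78 and 11.11, limma adjusted p = 0.0419). Of the 12, 11 were below 0. Fast genes lower at an unadjusted p under 0.05 numbered 7, with 0 higher, against 11% and 12.5% of all genes. Of 14 slow genes 3 rose, none fell, and the median was 0.14. The 3 were Tnni1, Tnnc1 and Casq2, of which Tnnc1 and Casq2 were already counted in the embryonic and cardiac list. The slow list was split, with 9 above 0 and 5 below, from -0.73 to 1.84. At an unadjusted p under 0.05, 5 were higher and 2 lower, against 12.5% and 11% of all genes. Slow troponin I (Tnni1) went from 8.30, 7.74 and 8.14 to 8.98, 9.42 and 9.49, a difference of 1.24 ± 0.180 (limma adjusted p = 0.0213). Slow and cardiac troponin C (Tnnc1) went from 8.09, 7.90 and 7.94 to 8.37, 8.99 and 8.89 (0.77 ± 0.160, adjusted p = 0.0433). The 3 slow genes passed together only without AC injury 1; leaving out any other single array left 0 of 14.

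Ion channel and triad genes fell in 6 of 21 cases and rose in 2. Of the 21, 15 were lower and 3 higher at an unadjusted p under 0.05, against 11% and 12.5% of all genes. The big-conductance potassium channel Kcnma1 fell by 0.94 (SE 0.147) and the inward rectifier Kcnj2 by 0.76 (SE 0.104), with limma adjusted p = 0.0253 and 0.0190. The calcium channel subunit Cacnb1 rose by 0.71 ± 0.104 (adjusted p = 0.0213), beside Kcnn3 above. The sodium channel of innervated muscle, Scn4a, differed by -0.39 ± 0.153 and did not pass (adjusted p = 0.177). With each array left out the number of falls was 0 without AC control 1, AC control 2, AC injury 2 or AC injury 3, 1 without AC control 3 and 7 without AC injury 1.

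Atrophy genes did not rise at this time. Of 21 ubiquitin ligase and FoxO pathway genes none rose and 1 fell, with a median of -0.20. Injured arrays lay wholly below the controls for 9 and wholly above for 2, against 13.1% and 15.3% of all genes. At an unadjusted p under 0.05, 7 were lower and 2 higher, against 11% and 12.5% of all genes. Trim63 (MuRF1), the ligase most used as a marker of wasting, read 9.15, 8.92 and 8.88 in controls and 8.68, 8.27 and 8.39 after injury, a difference of -0.54 ± 0.126 that did not pass (limma adjusted p = 0.0582). The 1 that fell was Klf15, a glucocorticoid-responsive regulator (-0.47 ± 0.0807, adjusted p = 0.0309). Of 31 proteasome subunits and 23 stress and unfolded protein response genes none passed in either direction. At an unadjusted p under 0.05, 1 proteasome gene was higher and 0 lower. For the stress genes 3 were higher and 7 lower, against the same 12.5% and 11% of all genes. Myostatin (Mstn), the secreted inhibitor of muscle growth, went from 10.06, 10.11 and 9.80 to 8.36, 7.84 and 8.53. Its groups were separate, and it was 3.36-fold lower (SE 0.179 on the log2 scale, adjusted p = 0.00826). The growth factor Igf2 rose by 0.79 ± 0.159 (adjusted p = 0.0413), and Igf1 differed by 0.47 ± 0.112 without passing (adjusted p = 0.0610).

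Myelin genes were mostly lower, with few calls among nerve and glia genes. None of 14 myelin genes passed in the limma test, although 12 were below 0, with a median of -0.38. Of the 14, 8 were lower and 0 higher at an unadjusted p under 0.05, against 11% and 12.5% of all genes. Myelin basic protein (Mbp) read 8.56, 8.31 and 8.14 in controls and 8.06, 7.72 and 7.85 after injury (adjusted p = 0.0905). Of 15 injured Schwann cell genes 2 rose, Ncam1 and N-cadherin Cdh2 (0.90 ± 0.192, adjusted p = 0.0457), and 1 fell, the stem cell transcription factor Sox2 (-0.57 ± 0.105, adjusted p = 0.0340). Of 25 neurotrophic genes only the receptor Lifr passed, falling by 0.69 (SE 0.112, adjusted p = 0.0281); Bdnf differed by 0.14 ± 0.110 and did not pass (adjusted p = 0.511).

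Over all denervation lists together, 41 of 246 measured genes passed (16.7%), 27 of them rises and 14 falls. That number was 16, 13 and 18 without AC control 1, 2 and 3, and 49, 22 and 16 without AC injury 1, 2 and 3. Of the 41, 12 passed without any single array: Chrna1, Chrnd, Chrng, Musk, Ncam1, Gadd45a, Cdkn1a, Myh3, Tnnt2, Mymk, Myf5 and Myh13.

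Genes of energy metabolism were lower after injury, most of them by less than 2-fold. Over all metabolic lists 61 of 237 measured genes fell and 1 rose (26.2% in all). The falls were most frequent among genes of glycolysis and glycogen (15 of 28, median -0.48) and of branched-chain amino acid and creatine use (12 of 24, median -0.37). Close to these were genes of the tricarboxylic acid cycle and pyruvate entry, taken as 1 list (12 of 25, median -0.43). Fewer members passed among fatty acid genes (7 of 29, median -0.31), complexes III to V (6 of 35, median -0.32) and complex I (5 of 33, median -0.29). The order of the lists was not tested.

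In glycolysis, Phkg1, the catalytic subunit of muscle phosphorylase kinase, read 9.15, 8.89 and 8.81 in controls and 8.10, 7.57 and 7.71 after injury. The difference was -1.16 ± 0.152 (limma adjusted p = 0.0177). Pfkfb1, an enzyme that sets the level of a glycolytic activator, went from 8.70, 8.43 and 8.13 to 7.39, 7.29 and 7.15 (-1.14 ± 0.145, limma adjusted p = 0.0170). The lactate exporter Slc16a3 went from 9.92, 9.80 and 9.79 to 8.66, 9.01 and 8.71 (-1.04 ± 0.107, adjusted p = 0.00826). All 3 genes had separate groups, and Slc16a3 was the only listed metabolic gene that passed without any single array. Muscle phosphofructokinase Pfkm fell by 0.90 (SE 0.134) and Gpd1, of the glycerol phosphate shuttle, by 0.90 (SE 0.115), with adjusted p = 0.0217 and 0.0170.

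In the list of tricarboxylic acid cycle and pyruvate entry every one of 25 measured genes was below 0. Of these, 23 had separate groups, and 45.9% of all genes were below 0. The cytosolic malate dehydrogenase Mdh1 went from 11.49, 11.37 and 11.33 to 10.82, 10.68 and 10.77 (-0.64 ± 0.0796, limma adjusted p = 0.0162). The mitochondrial form Mdh2, chosen here after its value was seen, differed by -0.45 ± 0.105 and did not pass (adjusted p = 0.0582). Idh3a, of isocitrate dehydrogenase, fell by 0.55 (SE 0.0772), Sdha, of succinate dehydrogenase, by 0.61 (SE 0.108) and Pdhb, of pyruvate dehydrogenase, by 0.50 (SE 0.0830), with adjusted p = 0.0201, 0.0321 and 0.0295. Citrate synthase Cs, the usual marker of mitochondrial content, read 11.53, 11.20 and 11.25 in controls and 11.07, 10.93 and 11.04 after injury and did not pass (adjusted p = 0.125).

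The respiratory chain showed small and even differences. All 33 complex I subunits were below 0, with a range of -0.63 to -0.14; Ndufs7 differed most, going from 11.53, 11.36 and 11.29 to 10.89, 10.66 and 10.74 (limma adjusted p = 0.0242). Of 35 genes of complexes III to V 33 were below 0. Among those that fell were Cox7b of complex IV (-0.57 ± 0.105) and the ATP synthase subunits Atp5f1a (-0.48 ± 0.0872) and Atp5f1b (-0.36 ± 0.0706), with adjusted p = 0.0343, 0.0336 and 0.0388. Mitochondrial ribosomal proteins stayed nearer 0: none of 41 passed, and the median was -0.09. Of the 41, 5 were lower and 0 higher at an unadjusted p under 0.05, against 11% and 12.5% of all genes.

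For fatty acids, Acadm, the medium-chain acyl-CoA dehydrogenase, went from 10.88, 10.65 and 10.58 to 9.95, 9.69 and 9.76 (-0.90 ± 0.109, limma adjusted p = 0.0150). The carrier Fabp3 fell by 0.87 (SE 0.168) and the activating enzyme Acsl1 by 0.65 (SE 0.105), with adjusted p = 0.0379 and 0.0279. In branched-chain amino acid use, Bckdhb fell by 0.84 (SE 0.141), the transaminase Bcat2 by 0.55 (SE 0.0902) and Got1, which links amino acids to the cycle, by 0.69 (SE 0.101), with adjusted p = 0.0296, 0.0282 and 0.0213.

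Regulators of mitochondrial biogenesis were mostly lower. Perm1, a muscle regulator induced with oxidative genes, went from 9.15, 8.81 and 8.65 to 7.65, 7.12 and 7.42 (-1.47 ± 0.168, 2.78-fold, limma adjusted p = 0.0133). The coactivator Ppargc1a went from 9.49, 9.50 and 9.31 to 8.90, 8.69 and 8.77 (-0.65 ± 0.0907, adjusted p = 0.0201). The fatty acid receptor Ppara, the kinase subunit Prkaa2 and the mitochondrial outer membrane gene Fundc2 also fell, by 0.87, 0.63 and 0.36 (adjusted p = 0.0282, 0.0483 and 0.0473). The groups were separate for all 5. The factors that transcribe mitochondrial DNA did not pass. Tfb2m differed by -0.29 ± 0.0957 with separate groups (adjusted p = 0.121). Tfam differed by -0.07 ± 0.0826, Tfb1m by -0.01 ± 0.0723, Polrmt by -0.10 ± 0.0822 and Nrf1, a nuclear activator of their genes, by 0.01 ± 0.0720 (adjusted p = 0.648, 0.969, 0.535 and 0.951). Of 23 regulators 5 fell and none rose, 19 were below 0, and 12 fell at an unadjusted p under 0.05 (11% of all genes), with a median of -0.29.

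**Figure D2:**
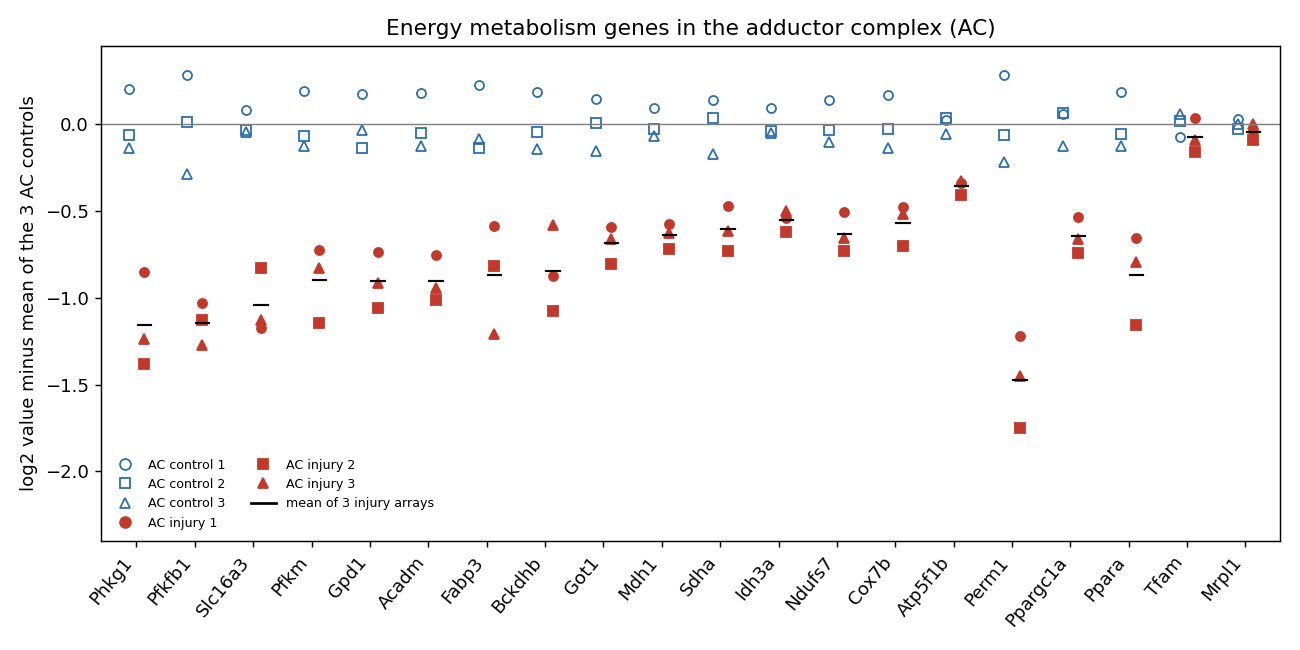
Log2 value of 20 energy metabolism genes in each AC array, minus the mean of the 3 AC controls (symbols as in the plot of denervation-related genes). The injured arrays lie below every control for all genes except Tfam and Mrpl1, with Perm1 lowest at a mean of -1.47.

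The metabolic calls depended on 5 of the 6 arrays. The number of listed metabolic genes past the test was 3, 1 and 9 without AC control 1, 2 and 3, and 70, 9 and 3 without AC injury 1, 2 and 3. It was 13 when all 12 arrays shared 1 estimate of the spread and 2 with the squamous marker mean as a covariate. For Perm1, leaving out an array kept the call in 4 of 6 fits, and for Ppargc1a in 2.

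Macrophage genes rose broadly. All 28 measured members were above 0, 26 had separate groups, 17 rose (60.7%) and the median difference was 0.81. Lilrb4, an inhibitory receptor of myeloid cells, went from 6.61, 6.76 and 7.57 to 8.46, 9.97 and 10.02 (2.50 ± 0.436, 5.67-fold, limma adjusted p = 0.0316). The lysosomal protein Cd68 went from 9.0, 8.87 and 9.27 to 9.81, 10.38 and 10.80 (1.28 ± 0.235, adjusted p = 0.0337). Mpeg1, a pore-forming protein of phagocytes, went from 7.86, 7.88 and 8.12 to 8.85, 9.50 and 9.62 (1.37 ± 0.196, adjusted p = 0.0206). In each case AC injury 1 was the lowest injured array and still lay above every control. Ms4a7 rose by 1.14 ± 0.131, the signalling subunit Fcer1g by 1.00 ± 0.138 and the complement gene C1qa by 0.65 ± 0.0992 (adjusted p = 0.0134, 0.0201 and 0.0242). Fcrl2, a receptor of the Fc family, rose by 1.98 ± 0.373 (adjusted p = 0.0357).

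Signals that draw monocytes rose with them. Of 33 chemokine and cytokine genes 7 rose and none fell, with a median of 0.47. The monocyte chemokine Ccl2 went from 10.34, 10.22 and 10.47 to 11.11, 12.09 and 11.57 (1.25 ± 0.223, limma adjusted p = 0.0321), and its receptor Ccr2 from 8.82, 8.92 and 8.49 to 9.38, 9.56 and 9.39 (0.70 ± 0.122, adjusted p = 0.0316). Every injured array was above every control for both genes. Cxcl9, a ligand for activated T cells, rose by 0.67 ± 0.10 and Tnfrsf12a, the receptor for Tweak, by 0.84 ± 0.123 (adjusted p = 0.0223 and 0.0213). Of 15 complement genes 3 rose, among them the receptor C3ar1 (8.04, 7.92 and 8.47 against 9.06, 9.48 and 9.69, adjusted p = 0.0235).

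Antigen presentation rose in 10 of 21 genes, with a median of 0.36. The class II gene RT1-Da went from 9.80, 9.82 and 9.92 to 10.56, 10.68 and 10.46 (0.72 ± 0.0842, limma adjusted p = 0.0141). RT1-DMb, whose protein loads peptides, rose by 0.85 ± 0.112, RT1-Db1 by 0.59 ± 0.0788 and the invariant chain Cd74 by 0.41 ± 0.0785 (adjusted p = 0.0177, 0.0177 and 0.0377). Near-identical genes of this family can share probe sequence and are uncertain singly. Lysosome genes rose in 7 of 23 cases, led by the protease legumain (Lgmn), which went from 9.67, 9.73 and 10.05 to 10.54, 10.86 and 10.95 (0.97 ± 0.141, adjusted p = 0.0213).

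Lymphocyte and interferon genes had few calls, although most T cell and interferon genes were above 0. Of 23 T cell and natural killer cell genes 1 rose, Cd4 (0.47 ± 0.0920, limma adjusted p = 0.0388), and Cd3e, a defining T cell gene, read 6.26, 6.22 and 6.39 against 6.57, 6.68 and 6.21 and did not pass (adjusted p = 0.407). Of the 23, 19 were above 0 and 10 had injured arrays wholly above the controls, against 15.3% of all genes. At an unadjusted p under 0.05, 7 were higher and 1 lower, against 12.5% and 11% of all genes. Of 28 interferon response genes 1 rose, Oas2 (0.50 ± 0.0791, adjusted p = 0.0264). Of the 28, 22 were above 0 and 8 had injured arrays wholly above the controls. At an unadjusted p under 0.05, 8 were higher and 1 lower. Of 13 B cell and plasma cell genes the adaptor Blnk rose by 0.54 ± 0.0796 and the receptor subunit Cd79b fell by 0.46 (SE 0.0904), with adjusted p = 0.0213 and 0.0388.

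Granulocyte and red cell genes moved the other way. Ngp, a granule protein of immature neutrophils, read 8.78, 9.89 and 9.02 in controls and 5.53, 5.04 and 7.55 after injury, the largest fall of any named gene (-3.19 ± 0.615, 9.13-fold, limma adjusted p = 0.0377). Myeloperoxidase (Mpo) went from 7.85, 9.19 and 8.41 to 6.15, 6.17 and 6.75 (-2.13 ± 0.324, adjusted p = 0.0235). Ahsp, the chaperone of alpha globin, went from 7.79, 8.89 and 8.09 to 5.54, 4.96 and 6.35 (-2.64 ± 0.384, adjusted p = 0.0213). AC control 2 was the highest array for all 3 genes, with AC injury 3 the highest of the injured arrays, and the groups did not overlap. The antimicrobial peptide gene Camp was steadier, going from 6.83, 6.83 and 6.78 to 5.99, 5.87 and 6.06 (-0.84 ± 0.0774, adjusted p = 0.00577), and was the only listed immune gene that passed without any single array.

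Most members of both lists were lower after injury. Of 22 neutrophil granule genes 17 were below 0 and 9 had injured arrays wholly below the controls, against 45.9% and 13.1% of all genes, with a median of -0.31, and 11 fell at an unadjusted p under 0.05 against 11% of all genes. Of the 22 neutrophil granule genes 5 passed: Ngp, Mpo, Camp, the elastase Elane (-1.36 ± 0.285, limma adjusted p = 0.0445) and the defensin Defa5 (-1.99 ± 0.415, adjusted p = 0.0438). The collagenase Mmp8 differed by -1.07 ± 0.378, the ficolin Fcnb by -0.70 ± 0.234, Defa11 by -0.68 ± 0.162 and the protease Ctsg by -0.50 ± 0.155, and did not pass (adjusted p = 0.145, 0.129, 0.0602 and 0.110). Nearer to 0 or above it, S100a8 differed by -0.12 ± 0.226, Lcn2 by -0.09 ± 0.258 and the growth factor receptor Csf3r by 1.45 ± 0.406, none past the test (adjusted p = 0.793, 0.874 and 0.0854). Of 24 red cell genes 23 were below 0, 17 had wholly lower injured arrays and 15 fell at an unadjusted p under 0.05, with a median of -0.48. In the adjusted test 8 fell, among them the anion exchanger Slc4a1 (-1.30 ± 0.264, adjusted p = 0.0418), the nuclear protein Hemgn (-1.16 ± 0.223, adjusted p = 0.0375) and carbonic anhydrase Car1 (7.37, 6.99 and 7.18 against 5.58, 5.86 and 6.19, adjusted p = 0.0167). The globin Hbb itself read 11.67, 12.35 and 11.83 against 11.05, 11.11 and 11.63 and did not pass (adjusted p = 0.106). With each array left out, 1 or 2 neutrophil genes fell. Leaving out AC injury 1 also gave 2 neutrophil genes that rose. The metalloproteinase Mmp9 of this list differed by 0.71 with all 6 arrays and did not pass. For red cell genes the number that fell was 0 without AC control 1 or AC control 2, 6 without AC injury 1 and 2 without any of the others.

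Some airway genes fell beside these. Of 19 airway epithelium markers 4 fell: Bpifa1, Scgb1a1, Sec14l3 and Cyp2a3. The list was split, with 11 below 0 and 8 above, from -1.80 to 0.50. At an unadjusted p under 0.05, 8 were lower and 1 higher, against 11% and 12.5% of all genes. Sec14l3, a lipid transfer protein of ciliated cells, read 7.38, 8.38 and 7.67 in controls and 5.92, 5.57 and 6.55 after injury, with AC control 2 again highest (-1.80 ± 0.308, limma adjusted p = 0.0311). None of the squamous, cartilage, bone, adipocyte or thyroid markers passed; at an unadjusted p under 0.05, 3 of 13, 1 of 16, 3 of 12, 0 of 16 and 0 of 15 were lower and 0, 0, 1, 2 and 1 higher. The 13 squamous markers were all below 0, from -0.68 to -0.20 with a median of -0.32, and 12 of 16 cartilage and 9 of 12 bone markers were also below 0, with medians of -0.11 and -0.22. The part of tissue composition in the falls of granulocyte, red cell and metabolic genes was not tested, beyond the fit with the squamous covariate.

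**Figure D3:**
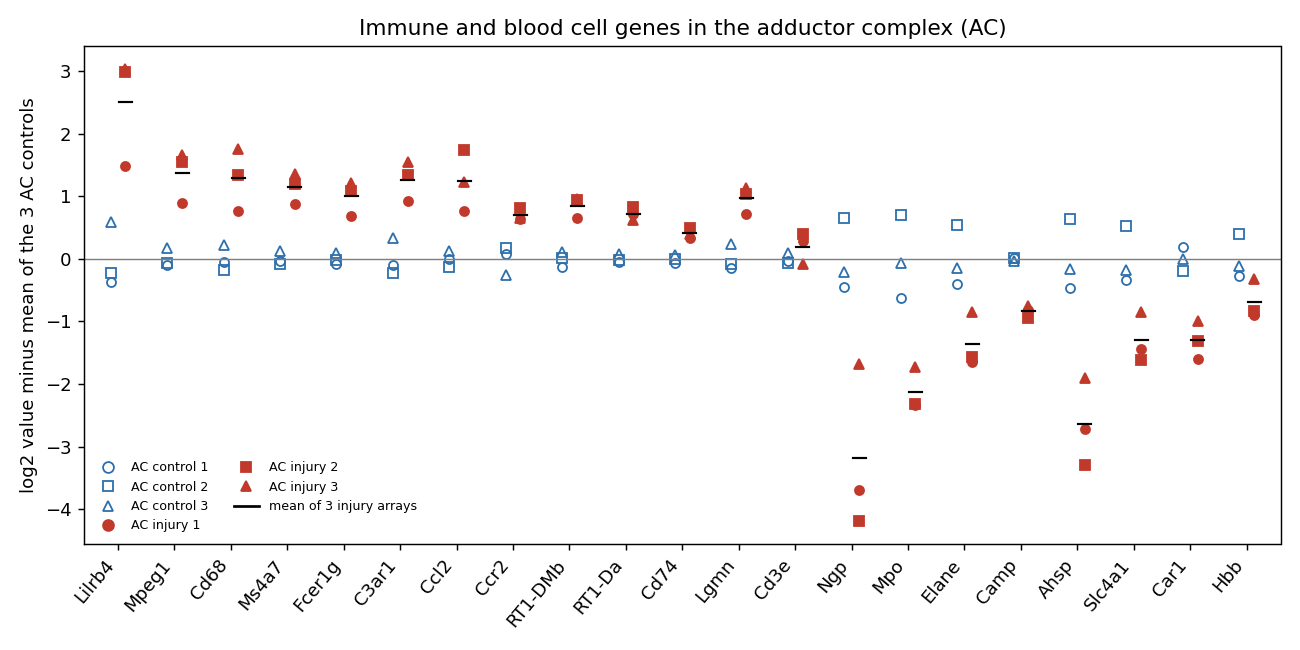
Log2 value of 21 immune and blood cell genes in each AC array, minus the mean of the 3 AC controls (symbols as in the plot of denervation-related genes). From Lilrb4 to Lgmn the injured arrays lie above every control, with AC injury 1 lowest in most; Ngp, Mpo and Ahsp spread widely, and Camp varies little within a group.

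Over all immune lists 44 of 242 measured genes rose and 16 fell (24.8% in all). The number past the test was 2, 1 and 10 without AC control 1, 2 and 3, and 75, 10 and 8 without AC injury 1, 2 and 3. For macrophage genes the 17 rises became 0, 0 and 2 without AC control 1, 2 and 3, and 22, 2 and 1 without AC injury 1, 2 and 3. For all immune lists the number was 28 when all 12 arrays shared 1 estimate of the spread, and 1 with the squamous marker mean as a covariate.

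Matrix genes were higher with few calls. Of 30 genes of fibroblast activation and matrix turnover 4 rose, with a median of 0.49: the metalloproteinase inhibitor Timp1 (10.08, 10.04 and 10.62 against 11.08, 11.83 and 11.51, limma adjusted p = 0.0321), the cytokine Tgfb1 (0.71 ± 0.0887, adjusted p = 0.0164), the fibroblast protease Fap (0.92 ± 0.184, adjusted p = 0.0394) and the urokinase gene Plau (0.56 ± 0.102, adjusted p = 0.0331). All 12 measured collagens were above 0 with a median of 0.67, but none passed. Of the 12, 9 were higher at an unadjusted p under 0.05, against 12.5% of all genes. Col1a1, of the main fibrillar collagen, read 12.22, 12.15 and 12.82 in controls and 12.72, 13.18 and 13.25 after injury, with AC control 3 above AC injury 1 (adjusted p = 0.113). Without each single array the 4 rises in the matrix turnover list ranged from 0 to 10, the latter without AC injury 1.

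**Figure D4:**
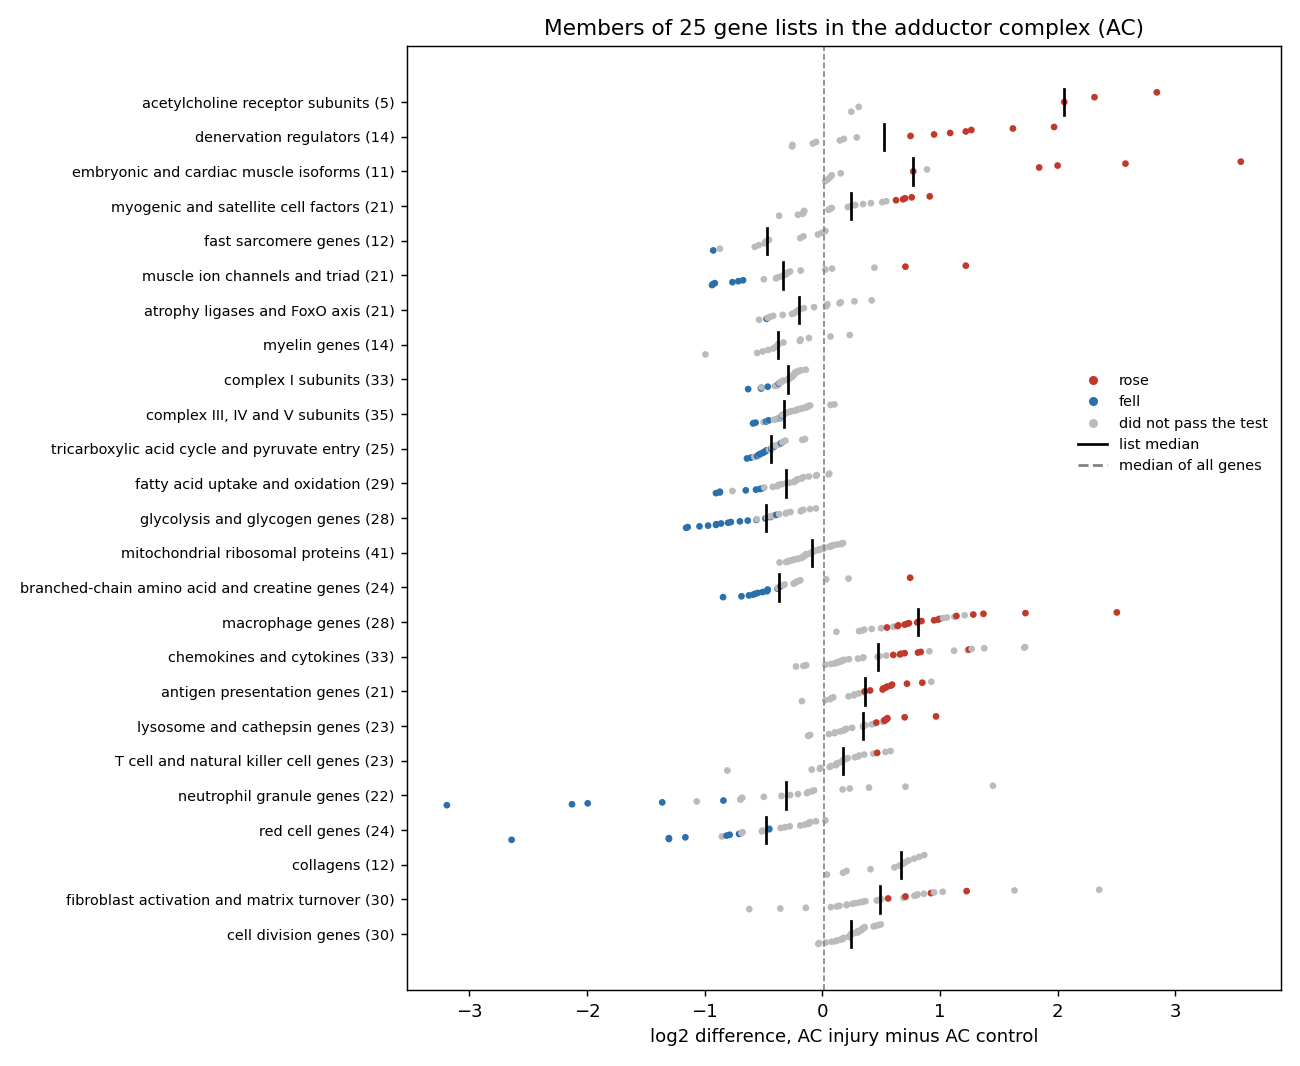
Log2 difference (AC injury minus AC control) of every measured member of 25 gene lists, with the number of members in brackets, red where a gene rose, blue where it fell and grey where it did not pass. Black bars are list medians and the dashed line is the median of all genes, 0.017; macrophage genes lie wholly to its right and complex I genes wholly to its left.

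Smaller lists held 1 or 2 calls each, against 2.28% of all genes that rose and 2.04% that fell. Of 17 mast cell and eosinophil genes 14 were below 0, and 9 were lower at an unadjusted p under 0.05, against 11% of all genes. The protease Mcpt4 and the eosinophil peroxidase Epx fell, by 0.38 and 0.54 (limma adjusted p = 0.0388 and 0.0320). Of 17 polyamine and growth arrest genes Sat1, which starts polyamine breakdown, rose by 0.41 ± 0.0809 (adjusted p = 0.0384). Of 11 endothelial markers 10 were above 0 and 6 rose at an unadjusted p under 0.05, against 12.5% of all genes. Among them the transcription factor Sox18 rose by 0.77 ± 0.132, of 10 tendon markers Cilp rose by 0.88 ± 0.164, and of 12 smooth muscle markers Lmod1 fell by 0.58 (SE 0.0941), with limma adjusted p = 0.0311, 0.0343 and 0.0279. Most members of the last 2 lists lay on the other side of 0. Tendon markers had 4 above 0 and 6 below, with a median of -0.08, and 3 were higher and 4 lower at an unadjusted p under 0.05. Smooth muscle markers had 9 above 0 and 3 below, with a median of 0.16, and 4 were higher and 2 lower.

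Other large changes included genes outside the lists described above. Klk1, the only 1 of 11 salivary and mucous gland markers that passed, a tissue kallikrein, went from 5.94, 6.11 and 6.81 to 8.27, 7.71 and 8.44 (1.85 ± 0.260, limma adjusted p = 0.0201). Most of these 11 markers were lower, with 8 below 0, 3 above and a median of -0.38. At an unadjusted p under 0.05, 2 were higher and 3 lower, against 12.5% and 11% of all genes. Slc51a, a subunit of the steroid and bile acid exporter, went from 6.42, 6.08 and 6.08 to 8.47, 7.86 and 7.96 and passed without any single array (1.90 ± 0.173, adjusted p = 0.00567). Adhfe1, a hydroxyacid transhydrogenase, went from 8.21, 8.44 and 7.99 to 6.93, 6.79 and 6.79 and also passed without any single array (-1.38 ± 0.120, adjusted p = 0.00542). Btn1a1, of the butyrophilin family, fell by 1.48 (SE 0.192, adjusted p = 0.0177). Further genes that passed without any single array were chosen here after their values were seen: the cystatin Cst7 (1.84 ± 0.162), the kinase Dclk1 (1.25 ± 0.108) and Vash2 (1.40 ± 0.136) rose, and Fn3k, which removes sugar from proteins (-1.15 ± 0.117), the chloride transporter Clcn4 (-1.04 ± 0.0946) and the transcription factor Shox2 (-1.03 ± 0.113) fell. The others of the 30 were Tm6sf1, which rose by 0.87 ± 0.0831, and 6 that fell: Upk1a (-0.69 ± 0.0728), St3gal6 (-0.88 ± 0.0784), Cmbl (-0.89 ± 0.0783), Bpifa2f (-1.27 ± 0.125), Scgb2a1 (-1.34 ± 0.138) and SPATA45 (-1.36 ± 0.13).

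**Figure D5:**
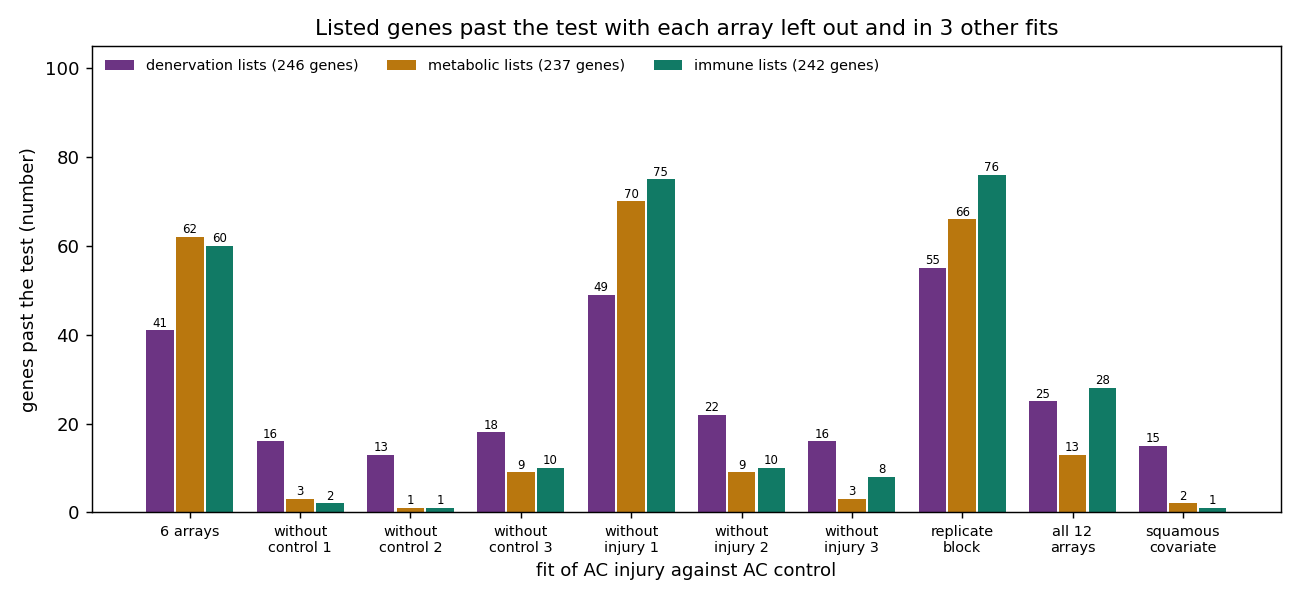
Number of genes past the test in the denervation, metabolic and immune lists with all 6 AC arrays, with each array left out, and in 3 other fits. Counts of 41, 62 and 60 with all arrays fell to 13, 1 and 1 without AC control 2 and rose to 49, 70 and 75 without AC injury 1.

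A test of the difference between muscles, fitted on all 12 arrays, asked which injury effects were larger or smaller in the adductor complex than in the PCA. It passed for 22 genes (0.154%), 4 higher and 18 lower in the adductor complex. In the PCA arrays alone, 1263 genes rose (8.81%) and 994 fell (6.94%). Among genes described above Tnnc1 and Upk1a passed. Upk1a differed by -0.69 in the adductor complex and by 0.06 in the PCA (limma adjusted p of the difference 0.0458). Tnnc1 rose in the adductor complex by 0.77 and fell in the PCA by 1.23, a difference of 2.00 ± 0.312 (limma adjusted p = 0.0419). For the receptor genes the difference did not pass: Chrna1 rose by 2.84 and 1.96, and Chrnd by 2.31 and 1.47, in the adductor complex and the PCA (adjusted p = 0.449 and 0.379). The fall of Ngp in the adductor complex stood beside -0.05 in the PCA, and that of Mpo beside -0.47, but neither difference passed (adjusted p = 0.0730 and 0.0858). Of the 18 lower genes 4 belong to the cell division list. Among them Top2a, the topoisomerase of dividing cells, differed by 0.23 ± 0.132 in the adductor complex and rose by 1.57 in the PCA (adjusted p of the difference 0.0327). The PCA groups also differed in surrounding tissue. Their squamous marker mean was 8.31, 10.22 and 7.48 in controls and 10.64, 11.14 and 11.23 after injury. With that mean as a covariate, 1 gene passed. The part of tissue composition in the differences between muscles was not tested further. The count of 22 was 0 without AC control 1, AC control 3 or AC injury 1, 406 without PCA control 2, and 0 without the 3 arrays of both muscles with high thyroid or parathyroid transcripts, an exclusion chosen after the values were seen.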

How the data were processed

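Laryngeal muscle of rats was measured on 12 Affymetrix whole-transcript arrays, 3 in each of 4 groups taken from the sample titles. The authors deposited 1 log2 value per probe set and array; the submitters' processing notes list RMA and Partek, with neither a version nor what each was used for. The log base was taken as 2 from the method and the range of values (2.57 to 14.04). Since RMA normalises by quantiles, a change is measured against the rest of the same array. Settings of the background step were not given in the sources used here. Precision is limited by the number of arrays.

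Of 27342 probe sets, 15103 had 1 gene symbol, 317 several and 11922 none. Symbols were checked against RefSeq (GRCr8, names only): 15067 matched and 36 kept the annotation's symbol. Where a gene had more than 1 probe set (500 genes), that with the highest mean over 12 arrays stood for it, and none had probe sets called in opposite directions. That left 14329 genes, with no filter on dim ones.

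Groups were compared with limma 3.58.1 (lmFit and eBayes, R 4.3.3), two-sided, with Benjamini-Hochberg adjustment and a threshold of 0.05, on the 6 AC arrays alone (4 residual and 3.54 prior degrees of freedom). The difference between muscles used all 12 arrays. The scripts were tested on simulated data. Replicate arrays of the AC groups correlated at 0.9891 to 0.9954 and none was a copy of another. The labels give shared replicate numbers, but deviations of same-numbered arrays correlated at 0.149, 0.117 and 0.0436, so the numbers were not taken as pairs.

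The members and the 49 gene lists (948 of 1105 listed genes measured, 6 under a current synonym) were chosen with earlier results of these data known. Lists are described by counts and medians, with no set test. Genes could be named from the 12 largest rises and falls with separate groups, all members of 7 lists, and from each other list the first measured member and the 4 with the smallest p, plus the 8 smallest p in each direction for the difference between muscles; not all of these are printed, and exceptions are marked. Alternatives were all 12 arrays, array weights, a trended robust prior, a filter on dim genes, the mean of a gene's probe sets, renormalisation, median centring, the replicate block, a squamous covariate and each array left out; 2 more were added after seeing the data. Promoter sequences came from RefSeq, GRCr8. No coordinates are given for probe sets, whose genome build the labels leave out.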

Additional observations from a re-analysis of the deposited data

Results flagged for a closer look

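A limma test of the difference itself, on all 12 arrays, marked the following genes, whose injury effect in the adductor complex (AC) differed from that in the PCA. The log2 effect in the AC minus that in the PCA was -1.18 for Hist2h3c2, -1.18 for Hist1h2an, -1.33 for Hist1h2ail1 and -1.25 for Hist1h2af, all histone genes. In the AC these 4 differed by 0.11, 0.03, 0.06 and -0.03, none past the test, and in the PCA they rose by 1.28, 1.21, 1.39 and 1.23. Hist2h3c2 read 10.72, 11.01 and 10.78 in PCA controls and 12.13, 12.03 and 12.20 in injured PCA. In AC controls it read 12.22, 12.22 and 12.17. Squamous markers also differed between the PCA groups, as given above, and the part of tissue composition was not tested beyond the squamous covariate. Near-identical histone genes can share probe sequence, so they are uncertain singly. The value was -1.34 for Top2a, which acts in dividing cells. It was -0.92 for Anxa2, a membrane-binding annexin, -1.19 for Ass1, of arginine synthesis, and -0.83 for the transporter Slc16a6.

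In the other direction the value was 3.55 for Ucp1, the uncoupling protein of brown fat, which differed by 0.09 ± 0.175 in the AC and fell by 3.46 in the PCA. It was 1.02 for Vsig2, 2.00 for the slow troponin Tnnc1 and 0.53 for the potassium channel subunit Kcns2. The next by p did not pass this test: Ankrd1 at 1.42, Agmo at 1.2, Zbtb16 at 1.41 and Ctxn3 at 1.32 (limma adjusted p = 0.0537, 0.0537, 0.0540 and 0.0542). Tnnc1 and Kcns2 alone among the 12 named here that passed it also passed in the AC itself (limma adjusted p = 0.0433 and 0.0450).

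Of probe sets outside the gene comparison, 55 with no single symbol passed the AC test when p-values were adjusted over all 27342 probe sets. Of 11922 with no symbol, 27 rose and 26 fell (0.445%), with differences up to 2.29 and down to -2.51, and of 317 with several symbols 2 passed (0.631%). By the same adjustment 201 of 15103 with 1 symbol passed (1.33%).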

How the results depend on the processing

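All 619 calls kept their sign in each alternative that tested them, but the counts moved. The sign is a weak check, because the calls were chosen on the same arrays. Genes past the test were 274 with all 12 arrays (165 rose, 109 fell), 34 with the squamous covariate (19 and 15) and 197 when adjusted over all probe sets, a setting added after seeing the data (104 and 93). With 1 array left out they ranged from 37 to 1033 (rises 21 to 597, falls 16 to 436); an arm then has 2 arrays. The replicate block gave 879 (490 rose, 389 fell), and 525 of the 619 calls passed in it; same-numbered arrays shared only a number. Array weights, the trended robust prior, the dim filter, probe set means, renormalisation and median centring gave 576 to 801. For named genes, 3930 results stayed on their side of the threshold, 700 lost the call, 78 gained one and 0 reversed. A reversal was counted only for a gene past the test in the main fit, the alternative or both.

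The 22 genes that differed between muscles became 348 with array weights, 35 with the trended robust prior, 39 after renormalisation, 1 with the squamous covariate, 0 with the replicate block and 0 without the 3 arrays with high thyroid transcripts. With 1 array left out they ranged from 0 to 406. In the 5 limma fits with 0, 1667 to 2034 genes had an unadjusted p under 0.05. The cause of these shifts was not tested. With 3 arrays a group, the median standard error was 0.0958, which limits what small differences can show.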
